A study of Mus musculus with 24 samples.

Results

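Of 51733 genes in the deposited count table, 36 encode glutamate receptor subunits or their auxiliary proteins, and these were picked by symbol, matched in capitals (GRIA1, GRIN2B, GRM4 and NETO2 stand for Gria1, Grin2b, Grm4 and Neto2). They comprise 4 AMPA, 7 NMDA and 5 kainate receptor subunits, 1 delta receptor, 7 metabotropic receptors and 12 auxiliary subunits. RNA came from the hippocampus of 2- to 3-month-old male C57BL/6 mice. The cKI mice were homozygous for eIF2αA, in which the regulatory serine of translation factor eIF2α is an alanine, and had a floxed eIF2α transgene (eIF2αA/A;fTg+) that CaMKIIα-Cre removes. Control mice are labelled standard CaMKIIα-Cre+, so both genotypes carried Cre under the promoter of Camk2a, a gene of excitatory forebrain neurons. Mice were taken 1 h after fear conditioning, which pairs a tone with a foot shock, or without it (naive). The labels do not say whether the weaker or the stronger shock protocol was used. From each of 12 mice, 3 per genotype and training state, 1 library was made of RNA pulled down with an antibody against tagged ribosomes (RiboTag, here called IP) and 1 of the whole lysate (Input).

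Ionotropic glutamate receptors are tetrameric cation channels opened by glutamate. AMPA receptors carry the fast excitatory current, NMDA receptors need depolarisation as well as glutamate and admit calcium, and kainate receptors act on both sides of the synapse. Metabotropic receptors signal through G proteins, and auxiliary subunits set the trafficking and gating of the channels. In the hippocampus these genes are used by pyramidal and granule cells, by interneurons and by glia, in different mixtures.

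The 24 libraries held 28.8 to 43.5 M counts, so that 1 count equalled 0.0245 to 0.0371 CPM (counts scaled to library size, with TMM factors over all libraries). Of the 36 members 34 passed the filter on low counts in both fractions. Grin3b, an NMDA receptor subunit, had 0 to 6 counts per library and Grm6, the receptor of retinal bipolar cells, 0 to 2, and neither was tested. 2 libraries lay apart from the rest in several members. CPM of Grm5 was 77.7 in IP replicate 2 of naive cKI mice, against 133 to 193 in the 11 other IPs. It was 96.7 in Input replicate 2 of naive controls, against 150 to 187 in the 11 other Inputs. These libraries had the lowest CPM of their fraction for 11 and 15 of 34 members, and IP replicate 2 of cKI mice at 1 h had the lowest for 14. A change in summed tissue RNA can be a change in the number of cells of a type or in RNA per cell, and the counts cannot tell these apart. Serine and alanine alleles of eIF2α cannot be told apart in counts per gene, so genotypes stand as labelled.

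The IPs held the markers of excitatory neurons and little of glia. Summed CPM of 8 excitatory neuron markers was 11900 to 13200 in IPs and 5530 to 6480 in Inputs. For 12 astrocyte markers it was 774 to 1060 in IPs and 5150 to 5810 in Inputs, for 10 oligodendrocyte markers 266 to 403 and 3760 to 6030, and for 13 inhibitory neuron markers 470 to 716 and 1390 to 1650. Precursors of oligodendrocytes (16.5 to 25.2 CPM in IPs, 304 to 435 CPM in Inputs) and microglia (27.5 to 38.8 and 417 to 554 CPM) were low in IPs as well. CA3 markers summed to 1390 to 2100 CPM in IPs and 885 to 1150 CPM in Inputs. No marker of these lists was at 0 in all IPs.

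The fraction comparison asks which receptor transcripts the tagged ribosomes held. The pulldown was rich in the main AMPA and NMDA receptor subunits and in their forebrain partners Cnih2 and Cacng8. It was poor in Grin2c, Grm3, Cacng4, Gria4, Grin2d, Grik1 and Grin3a. By the quasi-likelihood test of edgeR, 16 of 34 members were higher in IPs and 12 lower, at an adjusted p under 0.05. Over all genes tested 85.9% were called, 42.8% higher and 43.1% lower, so a call by itself is common. Fractions did not overlap for 19 of 34 members, against 47.8% of all genes. The median log2 fold change was 0.14 over the members and -0.009 over all genes. Scaling to library totals moved the median of all genes to -0.314, with 12 members higher and 19 lower there. Without the 2 libraries that lay apart 15 were higher and 14 lower. With library totals the sign turned for Grm4, Grm7, Grm8, Grik4, Cacng2, Cnih3 and Shisa7.

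Among NMDA receptor genes the obligatory subunit Grin1 had the largest log2 fold change of all members. Its CPM was 883, 964 and 1070 (lowest, median and highest of 12 mice) in IPs, against 445, 491 and 535 in Inputs, a log2 change of 0.97 (SE 0.03, edgeR adjusted p 5e-19). Every mouse had a higher value in its IP than in its Input, by 0.86 to 1.07 on the log2 scale, the narrowest range among the 4 members that gained most. The glutamate-binding subunits Grin2a and Grin2b, which set channel kinetics, followed. Grin2b was at 919, 1460 and 1790 CPM in IPs, against 570, 804 and 911 CPM in Inputs (log2 0.87, SE 0.07, edgeR adjusted p 5.6e-10). Grin2a was at 674, 873 and 1030 CPM in IPs, against 360, 497 and 536 CPM in Inputs (log2 0.85, SE 0.05, edgeR adjusted p 6.5e-13). The fractions did not overlap for any of these 3 genes. Reads of Grin1 may include those of Lrrc26, which overlaps it in the RefSeq annotation.

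The other NMDA receptor subunits were depleted in IPs. Grin2c, known from cerebellar granule cells and glia, had 4.99, 5.96 and 7.07 CPM in IPs, against 47.1, 51.6 and 64.9 CPM in Inputs. That is a log2 change of -3.14 (SE 0.05, edgeR adjusted p 9.4e-25), the lowest of all members. The interneuron-rich subunit Grin2d was at -1.64 (SE 0.09) and Grin3a, which lowers calcium entry, at -1.30 (SE 0.08), with values in 12 of 12 mice lower in the IP. Within an IP the ratio of Grin2a to Grin2b counts was 0.599 ± 0.0498 (SD, n = 12), and 0.606 ± 0.0211 in Inputs, so the balance of these subunits was nearly the same in both fractions.

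The bases just upstream of the RefSeq start are shown for Grin1 and Cnih2, which were high in the IP, for Grin2c, which was low, and for Grm2, whose IP values did not overlap between libraries with high and low sums of granule cell markers. They come from the RefSeq table of GRCm38.p6, run 5′ to 3′ on the gene's strand (minus for all 4) and end at the last base before the start. The places are chr2:25319188-25319437 for Grin1, chr19:5098522-5098771 for Cnih2, chr11:115267244-115267493 for Grin2c and chr9:106656110-106656359 for Grm2. Capitals mark the GC box GGGGCGGGG, the letters bound by Sp1 family factors, on either strand, or TTCAGCACC, the left part of the RE1 element bound by the neuronal repressor REST.
Grin1: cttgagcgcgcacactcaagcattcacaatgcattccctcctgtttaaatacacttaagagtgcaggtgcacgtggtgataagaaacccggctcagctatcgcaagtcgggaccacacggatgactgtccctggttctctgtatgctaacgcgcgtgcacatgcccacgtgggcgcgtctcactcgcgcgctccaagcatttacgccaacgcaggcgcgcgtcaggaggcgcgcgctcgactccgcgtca
Cnih2: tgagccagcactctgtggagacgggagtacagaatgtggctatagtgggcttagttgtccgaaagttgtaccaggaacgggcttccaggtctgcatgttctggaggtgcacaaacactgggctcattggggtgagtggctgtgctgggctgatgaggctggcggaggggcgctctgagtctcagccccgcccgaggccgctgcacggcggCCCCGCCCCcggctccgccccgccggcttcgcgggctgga
Grin2c: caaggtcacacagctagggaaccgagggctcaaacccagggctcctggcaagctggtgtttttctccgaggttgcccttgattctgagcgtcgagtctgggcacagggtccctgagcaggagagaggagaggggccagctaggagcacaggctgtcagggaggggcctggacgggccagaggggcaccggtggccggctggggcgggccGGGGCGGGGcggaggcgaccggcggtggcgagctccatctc
Grm2: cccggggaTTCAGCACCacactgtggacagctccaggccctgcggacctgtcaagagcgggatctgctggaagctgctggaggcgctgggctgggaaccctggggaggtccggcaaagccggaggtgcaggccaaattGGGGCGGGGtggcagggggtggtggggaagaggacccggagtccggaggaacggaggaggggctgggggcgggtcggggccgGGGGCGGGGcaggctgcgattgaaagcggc
Exact letters were searched on both strands in the 250 bases before the start of 23 members that the table holds, and of 27025 genes. A GC box was in 11.8% of genes and in 4 members, Cnih2, Grik5, Grin2c and Grm2. TTCAGCACC was in 0.348% of genes and in 1 member, Grm2. The right part of RE1 was in 0.492% of genes and 0 members. The cAMP response element TGACGTCA was in 1.77% of genes and 0 members, and the Egr site GCGNGGGCG, which can share bases with a GC box, in 5.33% of genes and 1 member, Gria4. These windows held G or C at 58.8% of bases in Grin1, 65.6% in Cnih2, 68.8% in Grin2c and 71.2% in Grm2, against a median of 52.4% over all promoters of the table. Members high and low in the IP both carried a GC box.

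For AMPA receptors, 3 of 4 subunits rose and 1 fell. The log2 fold change was 0.71 for Gria2, the subunit that blocks calcium entry after editing, 0.65 for Gria1 and 0.58 for Gria3 (SE 0.03, 0.03 and 0.04), with the IP higher in 12 of 12 mice for each. Gria4, a subunit of interneurons and of the young brain, was at 16.4, 19.6 and 22.7 CPM in IPs, against 56.9, 62.7 and 74.3 CPM in Inputs (log2 -1.70, SE 0.04, edgeR adjusted p 2.2e-20). Its fractions lay far apart, with the highest IP below the lowest Input. Counts of Gria1 relative to Gria2 were 1.17 ± 0.0661 in IPs and 1.22 ± 0.0393 in Inputs (SD, n = 12).

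Kainate receptor genes split. Grik5, a high-affinity subunit that works only with a partner, had a log2 change of 0.70 (SE 0.04), and Grik4, the other such subunit and rich in CA3, 0.22 (SE 0.03). The subunits that can form channels alone were lower in IPs, with Grik1 of interneurons at -1.36 (SE 0.09), Grik3 at -0.49 (SE 0.13) and Grik2 at -0.37 (SE 0.05). Counts of Grik5 relative to Grik2 were 7.82 ± 1.31 in IPs and 3.70 ± 0.563 in Inputs (SD, n = 12). The IP values of Grik3 spread from 28.1 to 88.5 CPM and overlapped those of Inputs, 70.1 to 103 CPM. Zfp574 overlaps Grik5 in the annotation, so Grik5 counts may include its reads. Grid1, the delta receptor that bridges synapses with cerebellins and neurexins, was at 105 to 140 CPM in IPs and 81.5 to 92.7 CPM in Inputs, and was higher in the IP of all 12 mice (log2 0.51, SE 0.03).

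Metabotropic receptors gave 1 call in each direction among 6 tested. Grm3, a glial and presynaptic receptor, had 3.52, 5.25 and 6.80 CPM in IPs, against 32.5, 41.9 and 46.2 CPM in Inputs (log2 -2.98, SE 0.07, edgeR adjusted p 2.4e-20). Grm4, a presynaptic receptor that lowers transmitter release, was called higher at 0.19 (SE 0.06, edgeR adjusted p 0.0076), but this was lost with DESeq2 (0.11, adjusted p 0.092) and turned to -0.12 with library totals. Grm5, which couples to calcium release behind the synapse, was at -0.10 (SE 0.11), Grm7 at 0.08 (SE 0.05), Grm8 at 0.05 (SE 0.09) and Grm2 at 0.30 (SE 0.21), and none of these passed. The intervals of these 4 values reached from -0.32 to 0.72. Without the 2 libraries that lay apart, Grm5 was at -0.15 (SE 0.05, edgeR adjusted p 0.014). These libraries were picked after their low Grm5 values were seen, so that p cannot serve as a test of Grm5.

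Of 12 auxiliary subunits 6 were higher in IPs, 4 were lower and 2 did not pass. Cnih2, a cornichon that slows AMPA receptor closing, had 448, 489 and 585 CPM in IPs, against 233, 279 and 331 CPM in Inputs (log2 0.83, SE 0.05, edgeR adjusted p 1.3e-13). Its paralog Cnih3 was at 0.12 (SE 0.08) and did not pass. Among transmembrane AMPA receptor regulatory proteins (TARPs), Cacng8 was at 0.79 (SE 0.03), Cacng3 at 0.51 (SE 0.04) and Cacng2, also called stargazin, at 0.16 (SE 0.04). Cacng7 was at -0.52 (SE 0.04) and Cacng4 at -2.08 (SE 0.14). Cacng4 had 3.17, 5.83 and 12.0 CPM in IPs, against 21.6, 25.7 and 29.7 CPM in Inputs (edgeR adjusted p 3.4e-11). Cacng7 and Cacng8 are neighbours on chromosome 7 with 0 protein-coding genes between them, and the fractions did not overlap for either of them, in opposite directions. Of the kainate receptor partners Neto2 was at 0.50 (SE 0.05) and Neto1 at -0.58 (SE 0.07). Of the Shisa (CKAMP) proteins Shisa7 was at 0.27 (SE 0.04), Shisa9 at -0.73 (SE 0.15) and Shisa6 at -0.14 (SE 0.13), which did not pass. Yif1a overlaps Cnih2 in the annotation, and their reads may be mixed in these counts.

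Sequencing lane bears on this comparison, because Inputs were run in lanes 4 and 5 and IPs in lanes 5 and 6. With lane as a covariate 11 members were higher and 9 lower. Grik4, Cacng2, Shisa7, Neto2, Grm4, Grik2, Grik3 and Shisa9 then missed the threshold, all with the sign they had. Grm2 was at 1.19 (SE 0.59, edgeR adjusted p 0.1) with lane and at 0 with library totals, against 0.30 as given above.

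**Figure D1:**
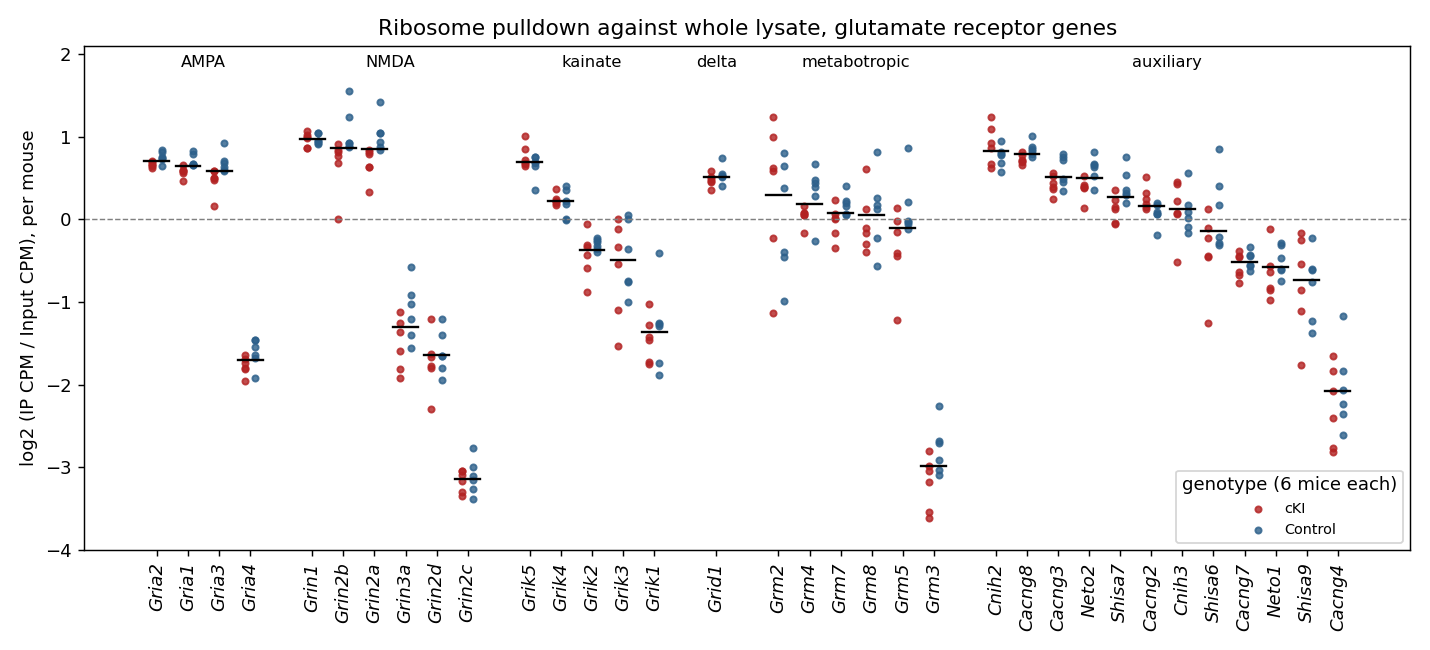
Log2 ratio of IP to Input CPM in each of 12 mice (points; 6 cKI and 6 control) for the 34 members tested, by receptor class, with a bar at the edgeR log2 fold change. Grin1 lies between 0.86 and 1.07 in all mice, Grin2c between -3.39 and -2.77, and Grm2 is spread from -1.13 to 1.24.

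Most genes for postsynaptic scaffolds and receptor trafficking were high in IPs too. Of 26 such genes 20 were higher in IPs and 3 lower by edgeR, against 42.8% and 43.1% of all genes. Their median log2 fold change was 0.60. Dlg3 was at 1.03 (SE 0.02), Dlg4, which encodes PSD-95, at 0.98 (SE 0.02), Baiap2 at 0.96 (SE 0.02) and Grasp at 1.09 (SE 0.03). Grip1 and Grip2, which bind AMPA receptor tails, were lower, at -0.58 and -1.29. Of 9 genes of glutamate transport and synthesis 4 were higher and 5 lower. The astrocytic transporters Slc1a3 and Slc1a2 and glutamine synthetase, Glul, were at -4.11, -2.33 and -3.28, while the neuronal transporter Slc1a1 was at 0.67 and the vesicular transporter Slc17a7 at 0.60.

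The genotype comparison asks how these transcripts differ where eIF2α cannot be phosphorylated in Cre-positive cells. In IPs of naive mice 3 members were lower in cKI than in control by edgeR and 0 higher, against 3.7% of all genes called and 2.5% called lower. They were Grm4, Cacng3 and Shisa7. DESeq2 called 9, all lower, the others being Gria4, Grin2a, Grin2b, Grin3a, Grid1 and Cacng8. The shares of all genes just given are those of edgeR and do not apply to this count. Grm4 had 16.7, 16.3 and 16.6 CPM in cKI IPs, against 26.0, 27.0 and 23.9 CPM in control IPs. The cKI values lay close together and below all controls, a log2 change of -0.63 (SE 0.11, edgeR adjusted p 0.015). Cacng3, a TARP of forebrain neurons, had 72.5, 81.3 and 83.4 CPM in cKI IPs, against 101, 101 and 104 CPM in control IPs (log2 -0.36, SE 0.08, edgeR adjusted p 0.033). Shisa7 had 231, 201 and 238 CPM in cKI IPs, against 262, 301 and 310 CPM in control IPs (log2 -0.38, SE 0.09, edgeR adjusted p 0.043). The groups did not overlap for these 3 genes.

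Most other members lay on the lower side as well, without passing. The log2 fold change was negative for 27 of 34 members, with a median of -0.20 against 0.004 over all genes. An unadjusted p under 0.05 was reached by 15 of 34 members, 14 of them lower, against 22.3% of all genes, 11.9% lower. Groups did not overlap for 16 of 34 members, against 26.7% of all genes. For NMDA receptors 6 of 6 subunits tested were negative, from -0.16 for Grin1 to -0.68 for Grin3a (SE 0.18, edgeR adjusted p 0.058). Grin2a was at -0.32 (SE 0.09, edgeR adjusted p 0.055) with 860, 674 and 786 CPM in cKI IPs, against 908, 963 and 1030 CPM in control IPs. The AMPA receptor subunits Gria4 and Gria3 were at -0.31 (SE 0.08) and -0.24 (SE 0.09), and Gria2 at 0.00 (SE 0.05). Kainate receptor subunits had both signs, with a median of 0.07. Cacng2, at 0.20 (SE 0.08), was the member at an unadjusted p under 0.05 that was higher in cKI. Larger positive values without such a p belonged to Grm2 (0.92) and Shisa9 (0.58).

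The members with the most counts of each class were also among those not called. Gria1 was at -0.15 (SE 0.06), Grin2b at -0.44 (SE 0.14), Grik5 at 0.11 (SE 0.07), Grid1 at -0.22 (SE 0.07), Grm5 at -0.46 (SE 0.23) and Cnih2 at -0.01 (SE 0.09). Grin2b had 1450, 919 and 1280 CPM in cKI IPs, against 1560, 1670 and 1730 CPM in control IPs. Its lowest value is that of IP replicate 2, one of the libraries that lay apart.

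Other cell markers differed in the same libraries. Summed CPM of 12 granule cell markers was 1510 to 2040 in naive cKI IPs and 620 to 1540 in naive control IPs, and that of 8 CA1 markers 1390 to 1770 and 1750 to 2400. For 10 oligodendrocyte markers it was 266 to 341 and 392 to 403. Of the markers 12 of 12 granule cell genes had a positive and 8 of 8 CA1 and 10 of 10 oligodendrocyte genes a negative log2 fold change. By edgeR 0 granule cell, 1 CA1 and 1 oligodendrocyte marker passed. Of 8 excitatory neuron markers 1 passed as higher and 1 as lower in cKI, and 1 of 3 choroid plexus markers tested passed as lower. The part of these cells in the result was not tested. All naive cKI IPs were sequenced in lane 5 and all naive control IPs in lane 6, so in these mice lane and genotype cannot be told apart. A lane term rests on the cKI IPs at 1 h alone, where replicate 1 was in lane 5 and replicates 2 and 3 in lane 6. With so few libraries it cannot separate lane from genotype. With it Grm4 was at -0.60, Cacng3 at -0.39 and Shisa7 at -0.37 (edgeR adjusted p 0.73 for each). Without naive control IP replicate 2, 0 members were called, Grm4 having an edgeR adjusted p of 0.11, and there was 1 without naive cKI IP replicate 2 or 3, naive control IP replicate 3 or control IP replicate 2 at 1 h. There were 5 without cKI IP replicate 2 at 1 h and 7 without naive control IP replicate 1. Cacng3 also missed it when scaled to library totals (-0.33, edgeR adjusted p 0.055). Cacng3 and Shisa7 missed the threshold without any 1 of the 3 naive cKI IPs.

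**Figure D2:**
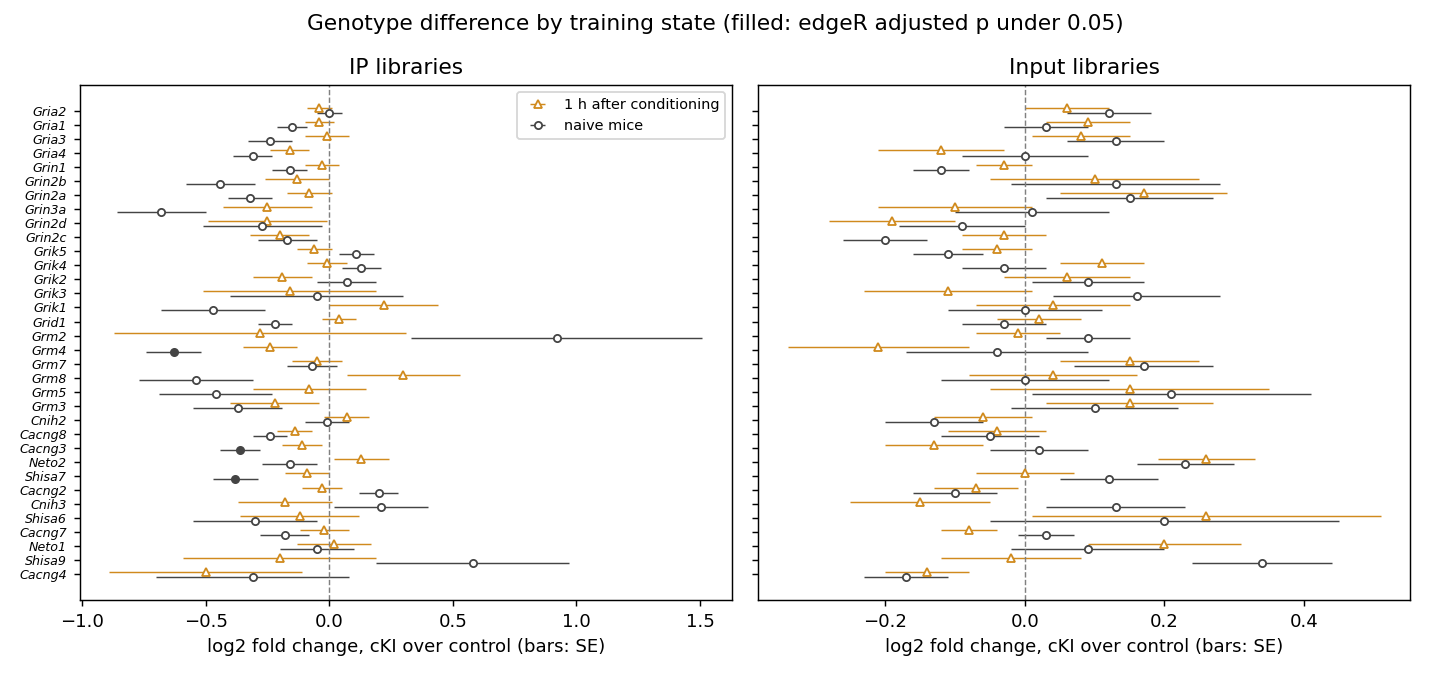
Log2 fold change of cKI over control with its SE, for 34 members in IP and Input libraries, 1 h after conditioning (triangles) and in naive mice (circles), 3 against 3 mice; filled symbols have an edgeR adjusted p under 0.05. Naive IP values lie mostly left of 0, with Grm4 (-0.63), Cacng3 (-0.36) and Shisa7 (-0.38) filled.

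In IPs 1 h after conditioning 0 members passed between genotypes with edgeR, 2 had an unadjusted p under 0.05 (5.56% of all genes), and DESeq2 gave 0 as well. Of all genes 0.0591% were called. Cacng8, a hippocampal TARP, had 208, 216 and 217 CPM in cKI IPs, against 226, 238 and 249 CPM in control IPs (log2 -0.14, SE 0.07, edgeR adjusted p 0.89). Grm4 had 16.8, 15.3 and 19.1 CPM in cKI IPs, against 23.5, 17.9 and 19.5 CPM in control IPs (log2 -0.24, SE 0.11, edgeR adjusted p 0.9). Gria4 was at -0.16 (SE 0.08). Groups overlapped for Grm4 but not for Cacng8 or Gria4, and 4 of 34 members did not overlap, against 11.3% of all genes. In lane 6 alone, with 2 cKI and 3 control IPs, Grm4 was at -0.23 and Cacng8 at -0.12. Gria1, Grin2b, Grik5, Grid1, Grm5 and Cnih2 lay between -0.13 and 0.07.

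Whether the genotype difference itself changed with training was tested as an interaction. It gave 0 of 34 members in IPs with edgeR, with 7 at an unadjusted p under 0.05 (9.34% of all genes). DESeq2 gave 0 as well, and edgeR called 0.0131% of all genes. The smallest p belonged to Grid1 (0.26, SE 0.10), Grm8 (0.84, SE 0.33) and Grm4 (0.39, SE 0.15), with edgeR adjusted p of 0.4 to 0.45. A larger deficit of Grm4 in naive than in conditioned cKI mice was therefore not shown.

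As a mean of both training states, with 6 mice per genotype, Grm4 was the member called in IPs, against 1.69% of all genes, 1.04% lower. Its CPM was 15.3, 16.7 and 19.1 (lowest, median and highest) in cKI IPs, against 17.9, 23.7 and 27.0 in control IPs, a log2 change of -0.44 (SE 0.08, edgeR adjusted p 0.018). The groups overlapped slightly. Cacng8 was at 189, 211 and 217 CPM in cKI IPs, against 226, 239 and 253 CPM in control IPs (log2 -0.19, SE 0.05, edgeR adjusted p 0.054), with no overlap between 6 and 6 mice. Gria4 and Gria1 did not overlap either, at -0.24 (SE 0.06) and -0.09 (SE 0.04), so that 3 of 34 members had separate groups, against 1.67% of all genes. Cacng3 was at -0.24 (SE 0.06, edgeR adjusted p 0.06). DESeq2 called 7 members, a count to which the edgeR shares of all genes do not apply. With lane as a covariate 0 were called (Grm4 -0.41, edgeR adjusted p 0.6), and without naive control IP replicate 2 Grm4 had an edgeR adjusted p of 0.065. Leaving out naive control IP replicate 1 gave 5, and leaving out naive cKI IP replicate 3 or cKI IP replicate 3 at 1 h gave 2.

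**Figure D3:**
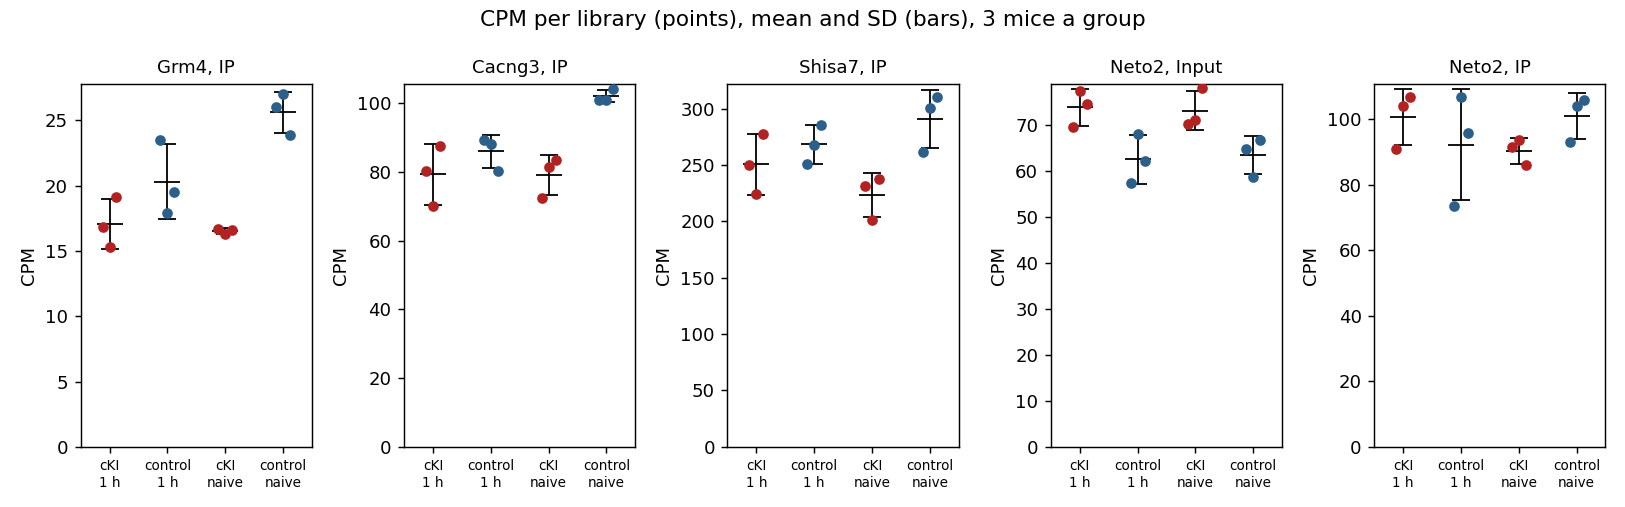
CPM in each library (points), with mean and SD of 3 mice, for Grm4, Cacng3 and Shisa7 in IPs and Neto2 in Inputs and IPs, in cKI and control mice 1 h after conditioning and naive. Naive cKI values of Grm4 are 16.3 to 16.7 CPM and naive control values 23.9 to 27.0 CPM, and Neto2 in Inputs is at 69.5 to 78.0 CPM in cKI and 57.5 to 68.1 CPM in control mice.

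Of the 26 scaffold and trafficking genes 3 were lower and 1 higher in naive cKI IPs, against 3.7% of all genes called and 2.5% called lower. Shank3, a scaffold of the postsynaptic density, was at -0.40 (SE 0.08, edgeR adjusted p 0.02) and Shank1 at -0.50 (SE 0.11, edgeR adjusted p 0.032), while Homer3, which links metabotropic receptors, was at 0.42 (SE 0.10, edgeR adjusted p 0.04). Over both training states Shank3 was the 1 gene of the list called, at -0.33 (SE 0.05, edgeR adjusted p 0.014). Of 9 transport and synthesis genes the vesicular transporter Slc17a6 was called in naive mice, at -0.72 (SE 0.15, edgeR adjusted p 0.024).

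In Inputs the genotypes differed in 1 member, Neto2, an auxiliary subunit of kainate receptors. Over both training states Neto2 had 69.5, 72.9 and 78.0 CPM (lowest, median and highest of 6 mice) in cKI Inputs, against 57.5, 63.5 and 68.1 CPM in control Inputs. No cKI value reached down to the highest control, and the log2 fold change was 0.25 (SE 0.05, edgeR adjusted p 0.025). Of all genes 3.15% were called, 1.15% higher, and groups did not overlap for 3.55%. In IPs Neto2 averaged 95.5 ± 8.17 CPM in cKI and 96.7 ± 12.6 CPM in control mice (SD, n = 6; log2 -0.01, SE 0.08). Cacng4 was at -0.16 (SE 0.05, edgeR adjusted p 0.078) and Grin2c at -0.11 (SE 0.04) in Inputs. Neto2 lost its call with lane as a covariate (0.33, edgeR adjusted p 0.13) and when any 1 of 6 libraries was left out, at edgeR adjusted p of 0.053 to 0.088. Those were naive cKI Inputs 2 and 3, cKI Inputs 2 and 3 at 1 h and control Inputs 1 and 3 at 1 h. All cKI Inputs were run in lane 4, with control Inputs 1 and 2 of naive mice, while the other 4 control Inputs were in lane 5.

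Oligodendrocyte markers also differed between genotypes in Inputs, with 8 of 10 lower in cKI over both states and sums of 3760 to 4600 CPM in cKI and 4230 to 6030 CPM in control Inputs. For precursors 2 of 8 were lower, for astrocytes 4 of 12, for inhibitory neurons 2 of 13 and for vessels 1 of 7. Granule cell, excitatory neuron and microglia markers mostly had the sign of Neto2, with 11 of 12, 8 of 8 and 8 of 10 positive. Of granule cell markers 2 were called higher, with sums of 920 to 981 CPM in cKI and 829 to 956 CPM in control Inputs. Of 8 excitatory neuron, 10 microglia and 6 choroid plexus markers 0 passed with edgeR. An unadjusted p under 0.05 was reached by 2, 5 and 0 of them, all higher in cKI. By training state, 9 of 10 oligodendrocyte markers were called lower in cKI Inputs of naive mice and 1 of 10 at 1 h. Their sums in control Inputs were 5610 to 6030 CPM in naive mice and 4230 to 4870 CPM at 1 h. With training, 8 of 10 were called lower at 1 h in control Inputs and 0 in cKI Inputs. The part of all these cell types in the Input values was not tested. Of the scaffold genes 0 of 26 and of the transport genes 0 of 9 passed between genotypes in Inputs, over both states or in naive mice.

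By training state, 0 members passed between genotypes in Inputs with edgeR. In naive mice 5 had an unadjusted p under 0.05 (17.6% of all genes), and 0.859% of all genes were called. Shisa9, which promotes desensitisation of AMPA receptors, had 45.6, 51.9 and 51.9 CPM in cKI Inputs, against 40.3, 34.2 and 46.0 CPM in control Inputs (log2 0.34, SE 0.10, edgeR adjusted p 0.13). DESeq2 called it, at an adjusted p of 0.048, and so did edgeR with lane as a covariate (0.46, adjusted p 0.037) or without naive control Input replicate 3 (0.46, adjusted p 0.039). Its groups overlapped narrowly, and 4 of 34 members did not overlap, against 20.1% of all genes. Grin2c was at -0.20 (SE 0.06) and Neto2 at 0.23 (SE 0.07). At 1 h 2 members had an unadjusted p under 0.05 (8.98% of all genes), and DESeq2 gave 0, with 0.267% of all genes called. Groups did not overlap for 13 of 34 members, against 22.8% of all genes. Neto2 was at 0.26 (SE 0.07), Cacng4 at -0.14 (SE 0.06) and Grin2d at -0.19 (SE 0.09). The 6 members with the most counts per class ran from -0.13 (Cnih2) to 0.21 (Grm5) in naive mice and from -0.06 (Cnih2) to 0.15 (Grm5) at 1 h. All cKI Inputs at 1 h were run in lane 4 and all control Inputs at 1 h in lane 5. At 1 h lane and genotype therefore cannot be told apart. A lane term rests on the naive control Inputs alone. With it Grm5 was at 0.61 (SE 0.34) and Grin2b at 0.48 (SE 0.24) at 1 h, and neither passed. The interaction in Inputs gave 0 members, with DESeq2 at 0 too and 1 at an unadjusted p under 0.05 (Shisa9, -0.36, SE 0.14; 4.82% of all genes), and 0.0348% of all genes.

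The training comparison asks whether receptor transcripts differ 1 h after conditioning. None of the 34 members passed with edgeR in either fraction or genotype. In control IPs, all run in lane 6, 6 members had an unadjusted p under 0.05 (10.3% of all genes), 5 of them lower at 1 h, and 0.328% of all genes were called. Grik1 had 3.28, 3.91 and 3.31 CPM in control IPs at 1 h, against 5.43, 8.02 and 5.35 CPM in naive control IPs (log2 -0.85, SE 0.22, edgeR adjusted p 0.13). DESeq2 called it, at an adjusted p of 0.024, as its 1 member. Its groups did not overlap, as for 5 of 34 members and 19% of all genes. Grm4 had 23.5, 17.9 and 19.5 CPM at 1 h, against 26.0, 27.0 and 23.9 CPM in naive controls (log2 -0.34, SE 0.11, edgeR adjusted p 0.23). Cacng3 was at -0.24 (SE 0.08, edgeR adjusted p 0.26). Grm8, a presynaptic receptor, was at -0.67 (SE 0.23). These naive control IPs are also the controls of the naive genotype comparison, so Grm4 and Cacng3 share 3 libraries in both.

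In cKI IPs 2 members had an unadjusted p under 0.05 (12.8% of all genes) and DESeq2 gave 0, with 0.0459% of all genes called. Groups did not overlap for 4 of 34, against 16.6% of all genes. Gria3 had 377, 388 and 403 CPM in cKI IPs at 1 h, against 361, 291 and 357 CPM in naive cKI IPs (log2 0.22, SE 0.09, edgeR adjusted p 0.32). Cnih3 was at -0.43 (SE 0.19) and Cacng2 at -0.16 (SE 0.08). Here 1 of 3 cKI IPs at 1 h shared lane 5 with the naive ones. In control Inputs 4 members had an unadjusted p under 0.05 (11.7% of all genes) and DESeq2 gave 0, with 0.737% of all genes called. Naive control Inputs 1 and 2 were run in lane 4, and naive control Input 3 and all control Inputs at 1 h in lane 5. Groups did not overlap for 6 of 34, against 16.4% of all genes. Shisa9 had 48.0, 50.3 and 48.9 CPM in control Inputs at 1 h, against 40.3, 34.2 and 46.0 CPM in naive control Inputs (log2 0.31, SE 0.10, edgeR adjusted p 0.24). Shisa7 was at 0.18 (SE 0.07) and Grin2c at -0.15 (SE 0.06). In cKI Inputs, all in lane 4, 0 members had an unadjusted p under 0.05 (5.27% of all genes) and DESeq2 gave 0, with 0.0174% of all genes called. Groups did not overlap for 3 of 34, against 13.3% of all genes. Cacng7 was at -0.08 (SE 0.04), Cacng4 at -0.10 (SE 0.06) and Gria1 at 0.09 (SE 0.06).

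None of the members with the most counts per class passed with training. Gria1 was at 0.10 in cKI IPs and -0.01 in control IPs, Grin2b at 0.25 and -0.06, and Grik5 at -0.14 and 0.03. Grid1 was at 0.09 in cKI IPs and -0.18 in control IPs, Cnih2 at 0.09 and 0.01, and Grm5 at 0.34 and -0.04. In Inputs these 6 ran from -0.05 (Grik5) to 0.10 (Grm5) in cKI mice and from -0.12 (Grik5 and Cnih2) to 0.16 (Grm5) in control mice. Of the scaffold genes 0 of 26 passed in the 4 training comparisons. Of the transport genes Slc17a6 was lower in control IPs at 1 h (-0.86, SE 0.15, edgeR adjusted p 0.038). This call and that of Slc17a6 between naive genotypes share the same naive control IPs.

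**Figure D4:**
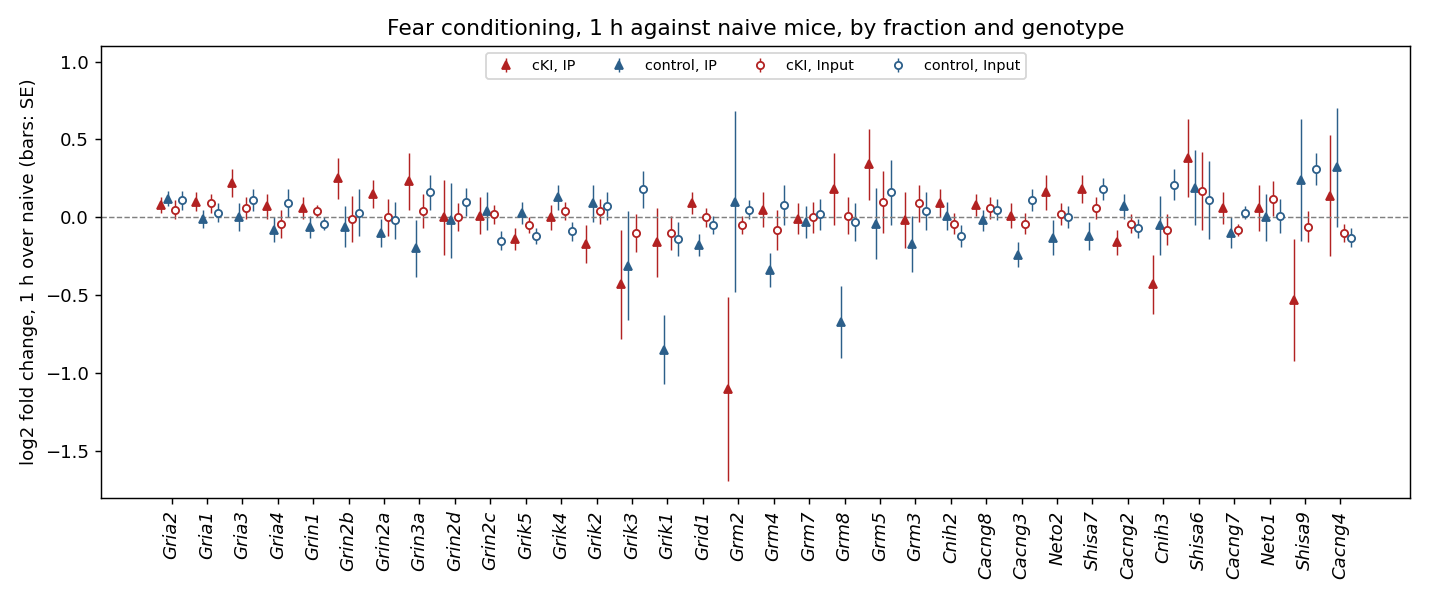
Log2 fold change of 1 h after conditioning over naive, with its SE, for 34 members in cKI and control mice, in IP (filled triangles) and Input libraries (open circles), 3 against 3 mice. None passed; the points farthest from 0 are Grm2 in cKI IPs (-1.10) and Grik1 in control IPs (-0.85).

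The ratio of IP to Input was set between genotypes in 1 model over all 24 libraries. It gave 0 members with edgeR and 0 with DESeq2, with 0.0229% of all genes called, and 11 of 34 members at an unadjusted p under 0.05, 10 of them lower in cKI. Of all genes 15.6% had such a p, 5.93% lower. The sign was negative for 27 of 34 members, with a median of -0.12 against 0.02 over all genes. Shisa7 had the smallest p, at -0.28 (SE 0.08, edgeR adjusted p 0.22). Its IPs averaged 237 ± 26.0 CPM in cKI and 280 ± 23 CPM in control mice, and its Inputs 216 ± 8.29 CPM in cKI and 210 ± 18.1 CPM in control mice (SD, n = 6). Grin2a was at -0.34 (SE 0.10, edgeR adjusted p 0.23). It averaged 813 ± 76.7 CPM in cKI and 935 ± 65.8 CPM in control IPs, and 508 ± 20.3 CPM in cKI and 461 ± 59.4 CPM in control Inputs (SD, n = 6). Grm3 was at -0.40 (SE 0.14), at 3.52 to 5.44 CPM in cKI and 4.78 to 6.80 CPM in control IPs. Without the 2 libraries that lay apart 7 members had an unadjusted p under 0.05. Lanes were not shared alike by the genotypes, as all cKI Inputs were in lane 4 and all control IPs in lane 6. Over the 7 other settings, lane as a covariate among them, Shisa7 ran from -0.37 to -0.20 and Grin2a from -0.55 to -0.22. Grm3 ran from -0.63 to -0.29, and none of these 3 passed in any of them. By training state 0 members passed with edgeR and 0 with DESeq2, 1 had an unadjusted p under 0.05 (Grik1, -0.37, SE 0.17; 4.13% of all genes), and 0.00573% of all genes were called.

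Grm2, a presynaptic receptor of dentate granule cells, had the widest relative spread among IPs of the 34 members tested. Its CPM was 107, 134 and 176 in naive cKI IPs and 48.8, 51.2 and 121 in naive control IPs. At 1 h it was 29.6, 58.6 and 106 in cKI IPs and 33.4, 93.5 and 110 in control IPs, against 64.3 to 74.2 in all 12 Inputs. Summed CPM of 12 granule cell markers, with C1ql3, Calb1 and Prox1 the highest, was likewise uneven. It was 597 to 921 in 5 IPs and 1350 to 2040 in the other 7, against 829 to 981 in Inputs, the divide of 1000 CPM being set after these sums were seen. Grm2 had 93.5 to 176 CPM in the 7 IPs with the higher sums and 29.6 to 58.6 CPM in the 5 with the lower sums, and for the other 33 members these ranges overlapped. Within the 7, Pearson's r of log2 Grm2 and the log2 sum was 0.93 (exact permutation p 0.0028, adjusted p 0.094 over 34 relations) and Spearman's rho 0.75 (exact permutation p 0.066, adjusted p 0.38). Leaving out the 2 IPs farthest from the median sum gave r = 0.73. Other members had like values, with Cnih3 at r = 0.89 and rho = 0.82, Shisa9 at 0.70 and 0.86, Grm7 at 0.38 and 0.79, Gria4 at -0.80 and -0.75 and Grin1 at -0.74 and -0.79. None of the 34 passed after adjustment (lowest adjusted exact permutation p 0.094 for r and 0.38 for rho). Without the same 2 IPs r was 0.37 for Cnih3 and 0.02 for Shisa9. It was 0.80 for Grm8 and -0.91 for Gria2, both farther from 0 than for Grm2. The 7 were 3 naive cKI IPs, 1 naive control IP, 1 cKI IP at 1 h and 2 control IPs at 1 h. All 5 IPs with the lower sums were run in lane 6. Of the 7, 4 were run in lane 5, which is every IP of that lane, and 3 in lane 6. These are too few for a correlation within a lane, but in lane 6 alone Grm2 had 93.5 to 121 CPM in the 3 with higher and 29.6 to 58.6 CPM in the 5 with lower sums.

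**Figure D5:**
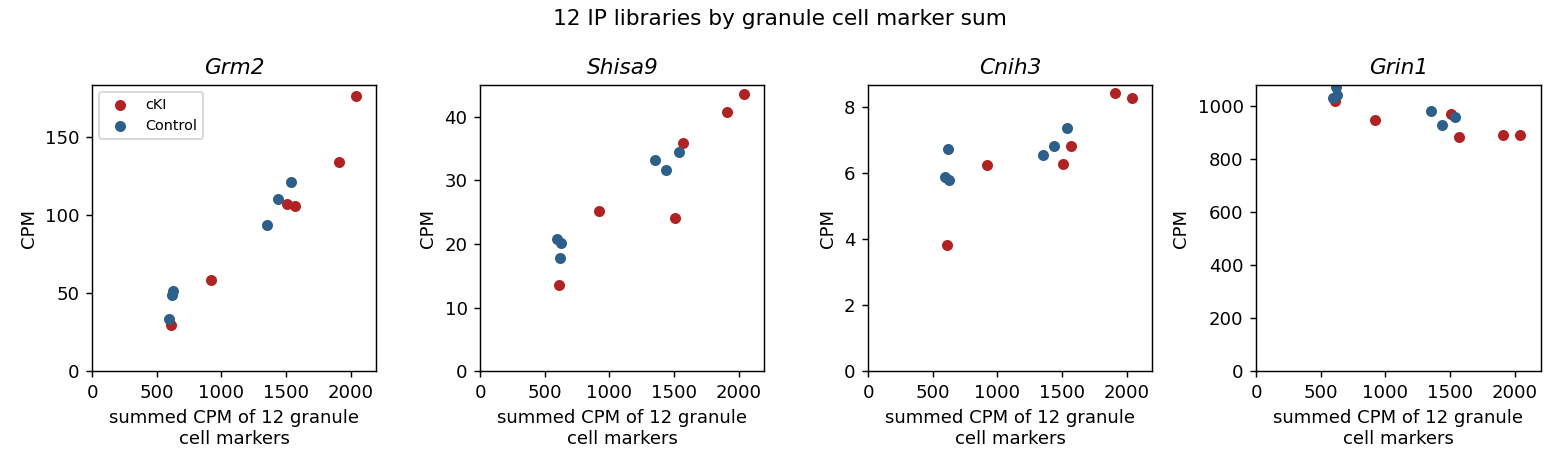
CPM of Grm2, Shisa9, Cnih3 and Grin1 in the 12 IP libraries (6 cKI, 6 control) against the summed CPM of 12 granule cell markers. Grm2 lies at 29.6 to 58.6 CPM in the 5 libraries with sums of 597 to 921 and at 93.5 to 176 CPM in the 7 with sums of 1350 to 2040.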

How the data were processed

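Poly(A) RNA libraries of hippocampal Inputs and RiboTag IPs from 12 mice were sequenced, per the labels' protocols. The deposited values were raw read counts per gene, with no normalization by the authors; cutadapt, Bowtie and DESeq2 are named in the submitters' processing notes. The counter, its strand setting and the genome build are named in neither the labels nor the file header.

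Counts were scaled by TMM and tested with the robust quasi-likelihood test of edgeR 4.0.16 in R 4.3.3, after filterByExpr, with Benjamini-Hochberg adjustment over all genes tested (17232 in Inputs, 15238 in IPs, 17453 in both). Inputs and IPs were fitted separately with 4 groups of 3 each, and together for the fraction and its ratio. SE is the log2 fold change over the square root of F. DESeq2 1.42.0, other scalings, no filter, lane, a block for mouse or replicate number, and leaving out each library were tried. Both libraries of a mouse are linked by the labels, and deviations of Input and IP of 1 mouse correlated at 0.03 to 0.32; replicate numbers do not link mice across groups. Replicates are separate mice. The pipeline was tested on simulated data. Between naive genotypes it recovered 50% of simulated 1.5-fold and 84.4% of 2-fold changes in IPs. In Inputs it recovered 57.6% and 77.6%, so a member that did not pass may still differ.

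The 36 members, the 26 scaffold genes, the 9 transport genes and the lists of cell markers were chosen with earlier results of these data known. Members past the threshold are named with values per sample (where over 8 passed, the 4 with the largest change in each direction; where under 3 passed, the 3 with the smallest p), as is the member with the most counts of each class. Promoters are from RefSeq (GRCm38.p6).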

Additional observations from a re-analysis of the deposited data

How the results depend on the processing

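Between genotypes in IPs, DESeq2 called 7 members over both states and 9 in naive mice, the replicate block 4 and 6, and lane as a covariate 0 and 0; without the filter on low counts 4 were called over both states. In Inputs lane as a covariate left 0 over both states, and DESeq2 and the lane covariate each called 1 in naive mice. DESeq2 called 1 in the training comparison of control IPs. The shares of all genes called that are given above are those of edgeR, not of DESeq2. Leaving out 1 library gave 0 to 7 in naive IPs, 0 to 5 in IPs over both states, 0 to 1 in Inputs over both states and in naive Inputs, and 27 to 29 between IP and Input. Replicate numbers do not pair mice (r of -0.12 to 0.27 in IPs, over 0.1 in 3 of 18 pairs), and the replicate block moved no other count; the mouse block left 28 members between IP and Input and 0 for the ratio. Leaving out naive cKI IP 2 and naive control Input 2 together was chosen after seeing the data.

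Values near 0 changed sign in several settings, and none of these comparisons of the 6 members with the most counts passed as reported; the cause was not tested. With lane as a covariate the log2 value was 0.08 for Grid1 between genotypes in Inputs over both states, and 0.01 for Grid1 in naive Inputs, as in lane 4 alone. In the training comparison of control Inputs it was -0.08 for Gria1, -0.22 for Grin2b and -0.13 for Grm5, and in lane 5 alone -0.07, -0.21 and -0.13. The interaction in Inputs gave 0.21 for Grin2b and 0.23 for Grm5 with lane. For Cnih2 in IPs lane gave 0.18 between naive genotypes, -0.04 with training in cKI mice (-0.05 in lane 5 alone) and -0.05 for the interaction, library totals gave 0.02 between naive genotypes, and no filter gave 0 with training in control mice.
Between IP and Input, library totals gave -0.12 for Grm4, -0.26 for Grm8, -0.09 for Grik4, -0.23 for Grm7, -0.14 for Cacng2, -0.03 for Shisa7 and -0.18 for Cnih3. Grm8 was at -0.02 with DESeq2 size factors, with the DESeq2 test and without the 2 libraries, and Grm7 at -0.01 with lane.
Leaving out 1 library, values that turned ran as follows. Between genotypes in Inputs, Grid1 ran from -0.04 to 0.01 over both states. In naive Inputs Gria1 ran from -0.05 to 0.09, Grin2b from -0.07 to 0.27, Grid1 from -0.09 to 0.01 and Grm5 from -0.04 to 0.38, and at 1 h Grid1 from -0.01 to 0.05. With training in cKI Inputs Grin2b ran from -0.06 to 0.08, Grid1 from -0.03 to 0.03 and Cnih2 from -0.14 to 0.01. With training in control Inputs Gria1 ran from -0.05 to 0.09, Grin2b from -0.16 to 0.17 and Grm5 from -0.09 to 0.33. The Input interaction ran from -0.18 to 0.16 for Grin2b, 0 to 0.12 for Grik5, 0 to 0.10 for Grid1, -0.24 to 0.19 for Grm5 and -0.03 to 0.12 for Cnih2. Between genotypes in IPs Grik5 ran from -0.02 to 0.05 and Cnih2 from -0.02 to 0.06 over both states, Cnih2 from -0.10 to 0.04 in naive mice, and at 1 h Grm5 from -0.17 to 0.03 and Cnih2 from -0.04 to 0.13. With training Cnih2 ran from -0.02 to 0.18 in cKI IPs. In control IPs Gria1 ran from -0.02 to 0.01, Grin2b from -0.17 to 0, Grm5 from -0.15 to 0.05 and Cnih2 from -0.04 to 0.06. The IP interaction of Cnih2 ran from -0.03 to 0.17, and Grm8 between IP and Input from -0.02 to 0.11.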
